A study of Mus musculus with 74 samples.

Results

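The comparison concerned mouse ES cells in which the endogenous Otx2 gene was activated on top of Nanog in the absence of LIF. It was made between 4 RNA-seq libraries of Nanog/Otx2 SunTag cells and 3 libraries of Nanog SunTag cells, all taken after 3 days without LIF and with Dox, which are 7 of the 35 RNA-seq libraries in the count table and of the 74 samples of the series. The members were chosen by their labels for guide RNA, LIF and Dox. Because the added guide and the set of libraries coincide, the 7 libraries of the same cells without LIF and without Dox served as the background. The quantity of interest was therefore the difference between the guides with Dox minus that without Dox, called the Dox-dependent difference below.

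SunTag is an activation system in which a dead Cas9 carries an array of peptide epitopes that recruit many copies of an antibody fused to the activator VP64. In these E14Tg2a-derived cells both parts are driven by a Tetracycline Responsive Element, so that Dox switches the system on and a guide RNA directs it to a promoter. The Nanog SunTag libraries came from 2 clones, C1 and C2, each with a guide for Nanog. The Nanog/Otx2 SunTag libraries came from the lines C1ON3 and C2ON3, derived by transfecting those clones with a guide for Otx2, so that each line is 1 clone and carries the Nanog guide as well. All 14 libraries were made from cells grown in serum on gelatine, with 0 ng/mL of LIF and with either 0 or 1 µg/mL of Dox. Of the 3 Nanog libraries with Dox, 2 bear the same clone and number in their titles and are called C1-1 and C1-1b here. By the titles they may be runs of 1 culture, whereas the column headers of the count table number them 1 and 2. They differed beyond sampling noise and were counted as 2 libraries. With their counts summed as 1 library, 5381 genes differed between the guides with Dox and 4 for the Dox-dependent difference, against 6630 and 5. Nothing in the labels says that libraries of 1 clone were separate derivations, so the p-values measure the spread between these libraries, which is partly that between cultures of a clone.

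Nanog is a homeodomain factor that sustains self-renewal when LIF signalling is lost. Otx2 is a homeodomain factor of the early epiblast that accompanies the exit from naive pluripotency and later patterns the anterior brain, and its gene is repressed by Nanog in ES cells. LIF acts through its receptor and STAT3 to maintain the naive state, and its withdrawal in serum starts differentiation.

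The 2 guides are shown because they define the comparison, with the PAM in capitals after the protospacer. Each matched the mm9 genome once with an NGG PAM.
Nanog guide: cttcccactagagatcgccaGGG
Otx2 guide: aatgtagagcgtgcatttggAGG
The Nanog protospacer lies on the plus strand at chr6:122657269-122657288, upstream of the Nanog gene, with its midpoint 229 bases before the start of the transcript Nanog-003. The Otx2 protospacer lies on the minus strand at chr14:49282649-49282668, with its midpoint 111 bases before the start of the transcript Otx2-003, and inside the body of the Otx2 gene as the longer transcripts define it.

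Some features of the libraries moved with the guide. Estimated counts summed to between 21499110 and 86864360 in the 14 libraries, and no pair of libraries of a group agreed within sampling noise. Mitochondrial transcripts took 9.88% to 10.4% of the counts in the Nanog libraries with Dox, 6.99% to 8.02% in those without, and 3.58% to 4.93% in all Nanog/Otx2 libraries. Genes of high GC content were higher in the Nanog/Otx2 libraries, as described below. Ribosomal protein transcripts took 3.91% to 4.46% of the counts in Nanog libraries and 5.70% to 6.64% in Nanog/Otx2 libraries. A few genes with near-identical copies were present in only one set, such as Rps27, which had 8105 to 14532 normalised counts in the 6 Nanog libraries and 0 in the 8 Nanog/Otx2 libraries. The part of these features in the results was not tested.

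The targeted genes responded to Dox in both sets. Nanog had 54732, 55641 and 45041 normalised counts in the 3 Nanog libraries with Dox and 31697 to 48470 in the 4 Nanog/Otx2 libraries. Without Dox it had 2234 to 8484 in the Nanog and 1974 to 6867 in the Nanog/Otx2 libraries. The ranges with Dox overlapped, and the difference between the guides (log2 fold change −0.46 ± 0.35, SE) did not pass the test (adjusted p = 0.31, edgeR). Its Dox-dependent difference was −0.01 ± 0.50. Dox thus raised Nanog by 3.17 on the log2 scale in Nanog cells and by 3.16 in Nanog/Otx2 cells, both called.

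Otx2 had 2248, 2484 and 2620 normalised counts in the Nanog libraries with Dox and 7347, 7311, 6827 and 7206 in the Nanog/Otx2 libraries with Dox. All 4 Nanog/Otx2 values lay above all 3 Nanog values, and the log2 fold change was 1.48 ± 0.18 (SE, a 2.79-fold difference, adjusted p = 1.99e-06, edgeR). Without Dox the values were 3534 to 4927 in Nanog and 3372 to 5148 in Nanog/Otx2 cells. These ranges overlapped, with a log2 fold change of −0.09 ± 0.17. The Dox-dependent difference was 1.57 ± 0.24 (adjusted p = 0.0083, edgeR). Dox lowered Otx2 by a log2 fold change of −0.76 in Nanog cells (adjusted p = 0.008) and raised it by 0.81 in Nanog/Otx2 cells (adjusted p = 0.0016). The mean with both guides and Dox, 7173 ± 238 normalised counts (SD, n = 4), was above the 4238 ± 697 (SD, n = 3) of Nanog cells without Dox.

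**Figure D1:**
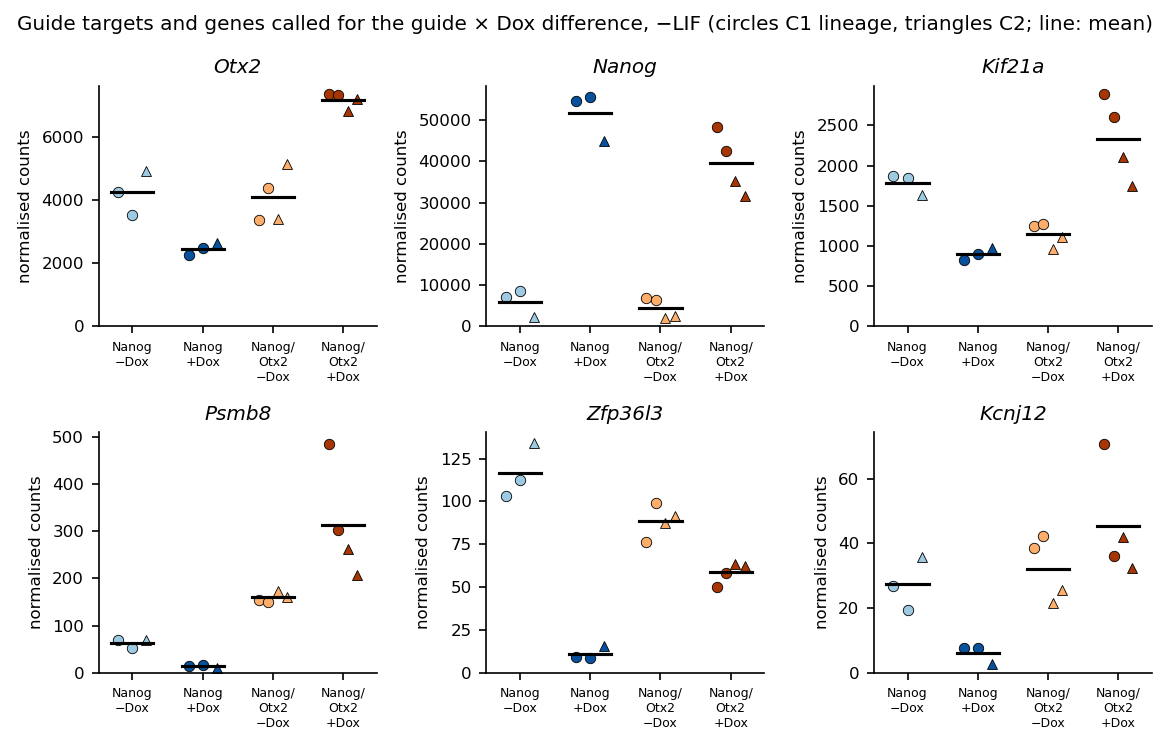
Normalised counts per library of Otx2, Nanog and the other 4 genes called for the Dox-dependent difference, in the 4 groups without LIF; circles are libraries of the C1 lineage, triangles of the C2 lineage and lines are group means. Nanog rises with Dox in both sets, whereas the group means of the other 5 genes are lowest in Nanog cells with Dox and are higher in Nanog/Otx2 cells with Dox.

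Across the genome the guides differed widely, both with and without Dox. With Dox, 3254 of 16210 genes tested were higher in Nanog/Otx2 cells (20.1%) and 3376 were lower (20.8%), at an adjusted p under 0.05 in edgeR. Without Dox, when the system is off, 2176 genes were higher (13.4%) and 1922 lower (11.9%). Of the genes higher with Dox, 1787 were also higher without it, which is 54.9% of the first list and 82.1% of the second. Of the genes lower with Dox, 1699 were also lower without it (50.3% and 88.4%), and 2 genes were called in opposite directions. The sign without Dox was the same for 96.2% of the genes higher and 97.5% of the genes lower with Dox. Their median log2 fold changes were 0.95 with Dox against 0.63 without for the higher genes, and −0.67 against −0.45 for the lower ones. Across all genes the fold changes had a Pearson r of 0.80, given as a description because both contrasts share clones and base composition though no library. Leaving out 1 library moved the number called without Dox most, to 2291 without the Nanog library C1-2.

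The Dox-dependent difference passed the test for 5 genes (0.0308%), all higher with both guides, and for 0 genes in the other direction (0%). At an unadjusted p under 0.05 there were 481 genes higher and 431 lower, together 5.63% of the genes tested, and DESeq2 called 36 higher and 5 lower, the 5 genes called by edgeR among them. The median standard error of this difference was 0.31 on the log2 scale, so that a difference under 0.63 would be within 2 standard errors for a typical gene. With 1 library left out the count was between 0 and 7. It was 0 without the Nanog +Dox library C1-1, when Otx2, Kif21a, Psmb8 and Zfp36l3 kept log2 differences of 1.51, 1.91, 3.21 and 2.65 at an adjusted p of 0.068 and 661 genes had an unadjusted p under 0.05, and it was 3 without the Nanog +Dox library C2-2. With a replicate block the count was 8 (parental lineage) or 10 (clone and number for Nanog/Otx2 libraries, clone alone for Nanog libraries).

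**Figure D2:**
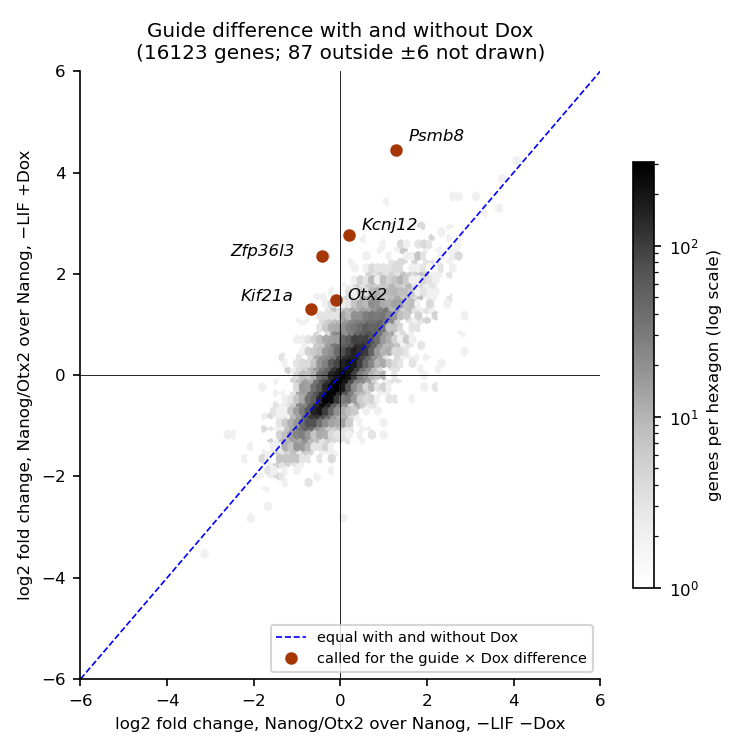
Log2 fold changes of Nanog/Otx2 over Nanog cells without Dox (horizontal) and with Dox (vertical), without LIF, for 16123 genes with both values within ±6; the shade counts genes per hexagon on a log scale, and 87 genes outside are not drawn. The cloud follows the dashed line of equality, and the 5 genes called for the Dox-dependent difference lie above it.

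Kif21a, which encodes a kinesin motor, behaved much like Otx2. It had 827, 904 and 972 normalised counts in Nanog cells with Dox and 1746 to 2888 in Nanog/Otx2 cells with Dox. Without Dox the order was the opposite, with 1632 to 1866 in Nanog and 963 to 1272 in Nanog/Otx2 cells. The groups overlapped neither with nor without Dox, and the Dox-dependent difference was 1.97 ± 0.29 (SE, adjusted p = 0.0083, edgeR). Its opposite difference without Dox (−0.67, adjusted p = 0.0178) was not called without the −Dox library C1-1, C1-2 or C2ON3-1 (adjusted p of 0.057 to 0.060). Dox changed its level by −0.95 in Nanog cells and by 1.02 in Nanog/Otx2 cells on the log2 scale, both called.

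Zfp36l3, an X-linked member of the family of RNA-binding proteins that destabilise AU-rich mRNAs, was lost with Nanog alone. It had 9.19, 8.57 and 15.4 normalised counts in Nanog cells with Dox, against 103 to 134 without Dox. In Nanog/Otx2 cells it had 50.3 to 63.4 with Dox and 76.6 to 99.1 without. The fall with Dox was −3.37 in Nanog cells (called) and −0.59 in Nanog/Otx2 cells (adjusted p = 0.16), and the Dox-dependent difference was 2.78 ± 0.43 (adjusted p = 0.0083).

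Psmb8, a catalytic subunit of the immunoproteasome, showed the largest of these differences. It had 14.2, 17.1 and 9.04 normalised counts in Nanog cells with Dox and 485, 302, 261 and 207 in Nanog/Otx2 cells with Dox. Without Dox the guides already differed, with 51.7 to 70.1 against 151 to 173. The log2 difference between the guides was 4.45 ± 0.39 with Dox and 1.29 ± 0.34 without, and the Dox-dependent difference was 3.16 ± 0.49 (adjusted p = 0.0103). It was not called without the Nanog +Dox library C1-1 (adjusted p = 0.068) or C2-2 (adjusted p = 0.072). Kcnj12, which encodes an inward rectifier potassium channel, was the least abundant, with 2.71 to 7.72 normalised counts in Nanog and 32.2 to 70.8 in Nanog/Otx2 cells with Dox, and its mean stayed below the minimum of 100 normalised counts set for naming, so that it is named after its values were seen. Its Dox-dependent difference was 2.58 ± 0.46 (adjusted p = 0.0379), and it was called in 5 of the 14 fits that left out 1 library.

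The same difference could be measured in other libraries of these lines, grown with LIF. There 4 genes were called, Otx2 and Kif21a among them, with Dox-dependent differences of 3.63 (adjusted p = 2.8e-07) and 2.16 (adjusted p = 0.0201). The other 2 were Ksr2 and AU022751, named after their values were seen. Kcnj12 and Zfp36l3 had values of 0.29 and 0.68 with LIF, which did not pass the test. Psmb8 did not pass it either, but had 0 normalised counts in all Nanog libraries with LIF, so that its value there is not given. The difference between the 2 conditions was itself tested and called for 0 of 16210 genes in edgeR, with 533 at an unadjusted p under 0.05, for 5 in DESeq2 and for 1 in edgeR with the GC trend removed, all of them lower without LIF, and for Otx2 it had an adjusted p of 0.117. Libraries with and without LIF are separate, but the clones are the same.

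A 6-base sequence known to be bound by Otx2, TAATCC, or GGATTA on the other strand, was looked for in the RefSeq promoters (GRCm38.p6, 250 bases before to 50 after the start) of the 5 called genes. One of them, Otx2 itself, holds it, in 1 of its 4 listed promoters. It is present in a promoter of 6.90% of the 10481 tested genes that matched the table by symbol. This is a description of these windows only.

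Sox3, Sox11, Id1 and Pou3f1, genes that the study discusses for Otx2, differed between the guides in both conditions. Sox3, Sox11 and Pou3f1 encode transcription factors of the epiblast and neural ectoderm, and Id1 an inhibitor of basic helix-loop-helix factors. They are also not independent of these libraries, since the study chose them here.

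Sox3 had 33.8, 52.3 and 44.3 normalised counts in Nanog cells with Dox and 171, 120, 199 and 212 in Nanog/Otx2 cells with Dox. Without Dox it had 248 to 278 in Nanog and 379 to 481 in Nanog/Otx2 cells. The groups did not overlap in either condition, and the guides differed by 1.96 ± 0.26 with Dox (adjusted p = 6.88e-06) and by 0.72 ± 0.24 without (adjusted p = 0.0304). The Dox-dependent difference, 1.24 ± 0.35, had an unadjusted p of 0.002 and an adjusted p of 0.49. Dox lowered Sox3 in both sets, by −2.58 and −1.34.

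Pou3f1 had 811 to 1387 normalised counts in Nanog cells and 2704 to 3967 in Nanog/Otx2 cells with Dox, against 3048 to 4101 and 4332 to 7294 without. This is the main one of 2 identifiers listed at its locus, between which reads may be split. Sox11 had 166 to 273 and 435 to 636 with Dox, and Id1 151 to 409 and 461 to 970. In each case the 4 Nanog/Otx2 libraries lay above the 3 Nanog libraries with Dox. The differences between the guides with Dox were 1.48, 1.20 and 1.44 for Pou3f1, Sox11 and Id1, and those without Dox 0.78, 0.75 and 1.21, all 6 called. The Dox-dependent parts of 0.70 ± 0.35, 0.45 ± 0.33 and 0.23 ± 0.55 did not pass the test. The calls without Dox were marginal. Those of all 4 genes, Sox3 included, were lost when the −Dox library C1-1, C1-2, C2ON3-1 or C2ON3-2 was left out, with adjusted p of 0.052 to 0.15, and that of Sox3 also without C2-1 or C1ON3-2.

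**Figure D3:**
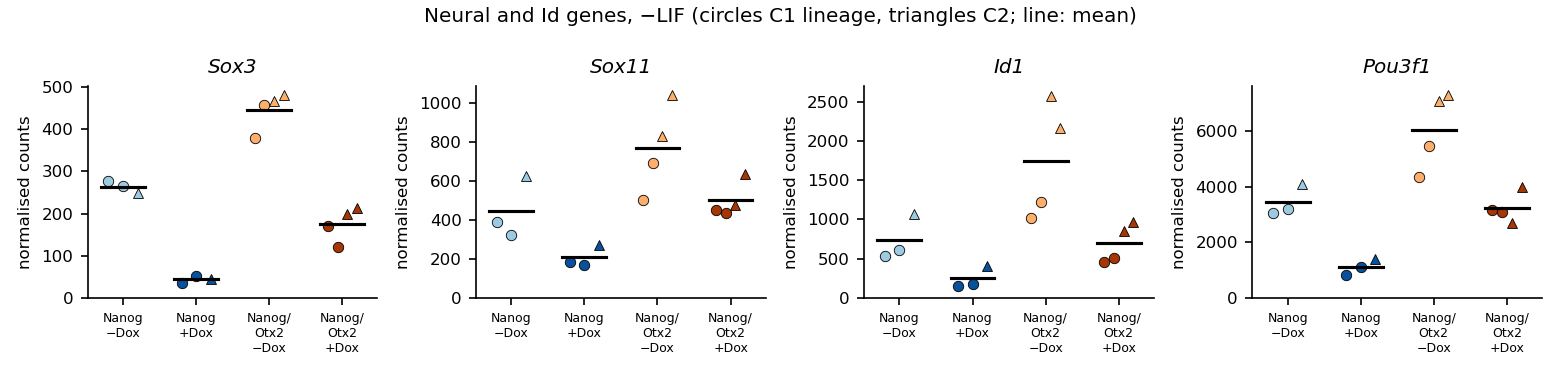
Normalised counts per library of Sox3, Sox11, Id1 and the main Pou3f1 identifier in the 4 groups without LIF, drawn as circles (C1 lineage) and triangles (C2 lineage) with lines at the group means. The group means of each gene are lower with Dox than without in both sets, though the change of Sox11 in Nanog/Otx2 cells (−0.62, adjusted p = 0.0652) did not pass the test, and they are higher in Nanog/Otx2 than in Nanog cells both with and without Dox.

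The calls for these 4 genes, other than that of the minor Pou3f1 identifier, were lost when the trend with GC content was removed. The guide difference rose with the GC content of a gene's exons, with a Spearman rho across 16163 genes of 0.61 with Dox, 0.49 without and 0.42 for the Dox-dependent difference. Among the 1617 genes of lowest GC content (median 39.95%) the median guide difference with Dox was −0.56, and 53.9% of them were called lower. Among the 1617 genes of highest GC content (median 59.6%) it was 0.84, and 61.0% were called higher. Sox3, Sox11 and Pou3f1 are in the high range, at 66.6%, 62.8% and 61.5%, and Id1 is at 54.7%.

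With the trend removed by an offset for each library, 4001 genes differed between the guides with Dox and 3587 without. The guide differences with Dox became 0.39 for Sox3 (adjusted p = 0.29), 0.07 for Sox11 (adjusted p = 0.884), 0.47 for the main Pou3f1 identifier (adjusted p = 0.243) and 1.09 for Id1 (adjusted p = 0.0648). The minor Pou3f1 identifier, with 19.8 to 38.1 normalised counts in Nanog/Otx2 and 0 to 3.34 in Nanog cells with Dox, remained called. Without Dox the sign turned for Sox3 (−0.53) and Sox11 (−0.06), neither called. The Dox-dependent difference of Otx2, Kif21a, Zfp36l3 and Psmb8 stayed called, at 1.71, 2.11, 2.58 and 3.09, that of Kcnj12 was 2.36 (adjusted p = 0.0642), and Phf6, an X-linked gene named after its values were seen, was called lower (−0.81). Whether the trend came from the cells or from the preparation of the libraries cannot be told apart, since guide and library set coincide.

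**Figure D4:**
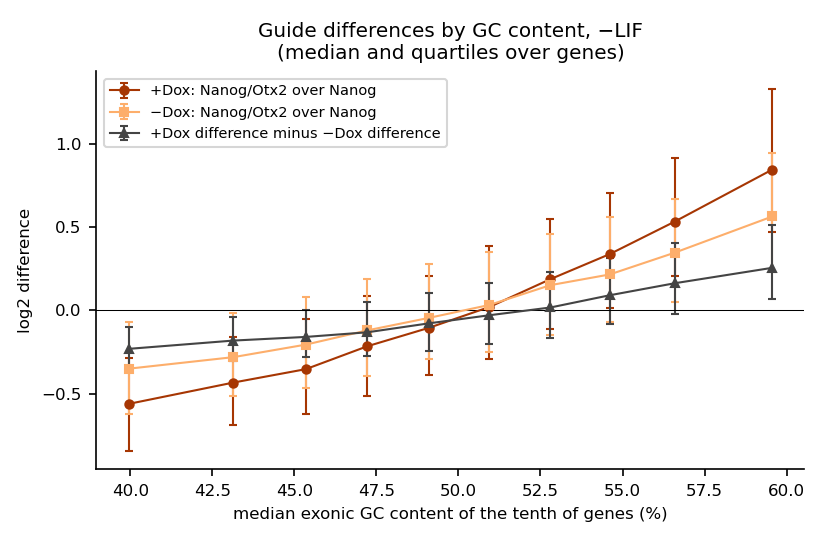
Median log2 difference of Nanog/Otx2 over Nanog cells with Dox, without Dox, and the Dox-dependent difference, over 10 equal bins of genes by exonic GC content (%); bars are quartiles over genes, not errors. The 3 medians rise from left to right, that with Dox from −0.56 to 0.84 and the Dox-dependent one from −0.23 to 0.25.

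For 22 gene lists the Dox-dependent difference was called for no member other than Otx2, so the lists are described by their counts and medians. Over all genes the median of the Dox-dependent difference was −0.05, and 55.5% of the values were below 0. Apart from the guide targets, the medians ran from −0.41 for naive pluripotency to 0.64 for the 6 fibroblast or feeder markers tested, with 0.45 for the genes that the study discusses. The last value was 0.13 with the GC trend removed, and 0.13 without the −Dox library C2-1, 0.29 without C1ON3-1, 0.70 without C1-2 and 0.81 without the +Dox library C2-2. With 1 library left out the medians of 9 of the 22 lists changed sign, all of them lists with a median between −0.12 and 0.15.

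Naive pluripotency genes, which mark the ground state sustained by LIF, had a median Dox-dependent difference of −0.41, and 18 of the 21 identifiers tested had a value below 0. Of these, 4 had an unadjusted p under 0.05, namely Pecam1 (−1.06), Gbx2 (−1.75), Dppa5a (−0.70) and Fbxo15 (−0.67), and 0 were called. The median was −0.47 with the GC trend removed and between −0.56 and −0.24 with 1 library left out. With Dox 4 of the 21 were called lower with both guides and 0 higher, against 20.8% and 20.1% of all genes tested. Without Dox 2 were called lower and 2 higher, against 11.9% and 13.4%. Pecam1, an adhesion molecule of naive ES cells, had 1666 to 1940 normalised counts in Nanog and 852 to 1085 in Nanog/Otx2 cells with Dox, whereas it had 375 to 961 and 388 to 950 without. Dppa5a was instead higher with both guides in either condition, at 15024 to 22955 and 28500 to 30115 with Dox, and 7936 to 10778 and 16332 to 27080 without. Gbx2 overlapped with Dox (228 to 300 and 138 to 276) and had 55.4 to 134 and 69.5 to 459 without. The median guide difference of the naive pluripotency list was −0.35 with Dox and 0.17 without.

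These genes were nonetheless responsive to Nanog in both sets. Dox raised 17 of the 21 in Nanog cells and 14 of the 21 in Nanog/Otx2 cells, against 7.33% and 7.11% of all genes tested. It lowered 0 of them in either set, against 5.09% and 3.9% of all genes.

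Genes of the formative and primed epiblast, the state after naive pluripotency, had a median of 0.25, with 16 of 21 identifiers above 0. With Dox 8 were called higher with both guides and 2 lower, against 20.1% and 20.8% of all genes tested. Without Dox 3 were called higher and 2 lower, against 13.4% and 11.9%. When the GC trend was removed, 2 were higher and 1 lower with Dox, against 1913 and 2088 of 16163 genes. Fgf5, a ligand of the primed epiblast, had 422, 530 and 866 normalised counts in Nanog cells and 915 to 1405 in Nanog/Otx2 cells with Dox, and 2508 to 2558 and 1929 to 2238 without. It was thus below its −Dox level in both sets, and its Dox-dependent difference of 1.28 ± 0.49 had an adjusted p of 0.753. Dox lowered 9 of the 21 in Nanog cells and 6 in Nanog/Otx2 cells, against the 5.09% and 3.9% of all genes.

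Genes of Nodal and activin signalling had a median of 0.41, with 12 of 13 above 0 and 1, Pcsk6, at an unadjusted p under 0.05. Pcsk6, a convertase that processes the Nodal precursor, had 548 to 732 normalised counts in Nanog and 696 to 1069 in Nanog/Otx2 cells with Dox. Primitive streak and mesendoderm genes had a median of 0.38 (10 of 13 above 0), WNT genes 0.33 (13 of 17) and BMP and Id genes 0.30 (10 of 14). Within them Wnt3, a ligand of the primitive streak, had a value of 2.27 and Mixl1, a streak homeobox gene, 1.16, both at an unadjusted p under 0.05 and an adjusted p of 0.702 and 0.785. Both had low counts. With Dox, Wnt3 had 1.67 to 20.8 normalised counts in Nanog and 14.9 to 32.2 in Nanog/Otx2 cells, and Mixl1 14.5 to 17.1 and 20.3 to 28.3. Without Dox the values were 43.9 to 86.0 and 24.4 to 37.8 for Wnt3, and 39.3 to 63.3 and 22.7 to 42.3 for Mixl1. Evx1 and Eomes went the other way with Dox, with 69.6 to 117 and 38.2 to 53.7, and 396 to 617 and 223 to 409. In the Nodal, streak, WNT and BMP lists 1, 2, 2 and 1 members respectively were higher at an unadjusted p under 0.05, and 1 WNT member, Sfrp1, was lower. Of all 16210 genes tested, 481 were higher and 431 lower by that measure. The list medians of the Dox-dependent difference without the GC trend were 0.29, 0.34, 0.21 and 0.14. The median guide differences were 0.36, 0.38, 0.41 and 0.07 with Dox, and −0.14, −0.04, −0.26 and −0.31 without. With the GC trend removed these were 0.13, −0.08, −0.31 and −0.004 with Dox, and −0.17, −0.52, −0.23 and −0.25 without. With 1 library left out the medians of the Dox-dependent difference stayed above 0. They were 0.18 to 0.51 for Nodal and activin, 0.17 to 0.69 for the primitive streak, 0.21 to 0.52 for WNT and 0.08 to 0.45 for BMP and Id genes. The lowest of these came without the −Dox library C1-1 for Nodal, without C2-1 for the primitive streak, and without the +Dox library C1-1 for the other two.

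Neuroectoderm genes had a median of 0.02, with 8 of the 15 tested above 0. Of these genes 1 was called higher with Dox, Sox11, and 2 lower, of which 1 was Ncam1, a neural adhesion molecule with a guide difference of −0.94. The shares of all genes tested were 20.1% higher and 20.8% lower. A further 13 identifiers, such as those of Six6, Rax and Neurog1, did not reach the minimum count. Anterior endoderm and head organiser genes, a further domain of Otx2 function, had a median of 0.15. It was −0.03 with the GC trend removed and between −0.02 and 0.31 with 1 library left out, below 0 without the −Dox library C1-2 or C1ON3-1. Sfrp1, a WNT antagonist on this list and on the WNT list, was at −0.61 (adjusted p = 0.543).

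Extraembryonic endoderm, core pluripotency, LIF receptor and STAT3, DNA methylation, epithelial and mesenchymal adhesion, axon guidance and p53 response genes had medians between −0.03 and 0.08. Polycomb genes were at −0.14, FGF and ERK feedback genes at −0.12, germ cell genes at −0.33 and trophoblast and simple epithelium genes at 0.34. Within the FGF list Phlda1, which is induced by growth factor signalling, rose with Dox in Nanog/Otx2 cells by 2.03 (called), with 104 to 156 normalised counts against 40.7 to 89.2 in Nanog cells, and its Dox-dependent difference was 1.24 (adjusted p = 0.594). The markers of fibroblasts or feeders that were tested, 6 of 10, all had values above 0, with a median of 0.64 and Col1a1 at 1.89 (adjusted p = 0.591). Their summed level was 545 to 1038 normalised counts in Nanog and 922 to 1624 in Nanog/Otx2 cells with Dox, and Col3a1, Lum, Postn and S100a4 did not reach the minimum count. Their part in the results was not tested, and fewer cells of a type and less RNA per cell cannot be told apart in such bulk libraries.

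**Figure D5:**
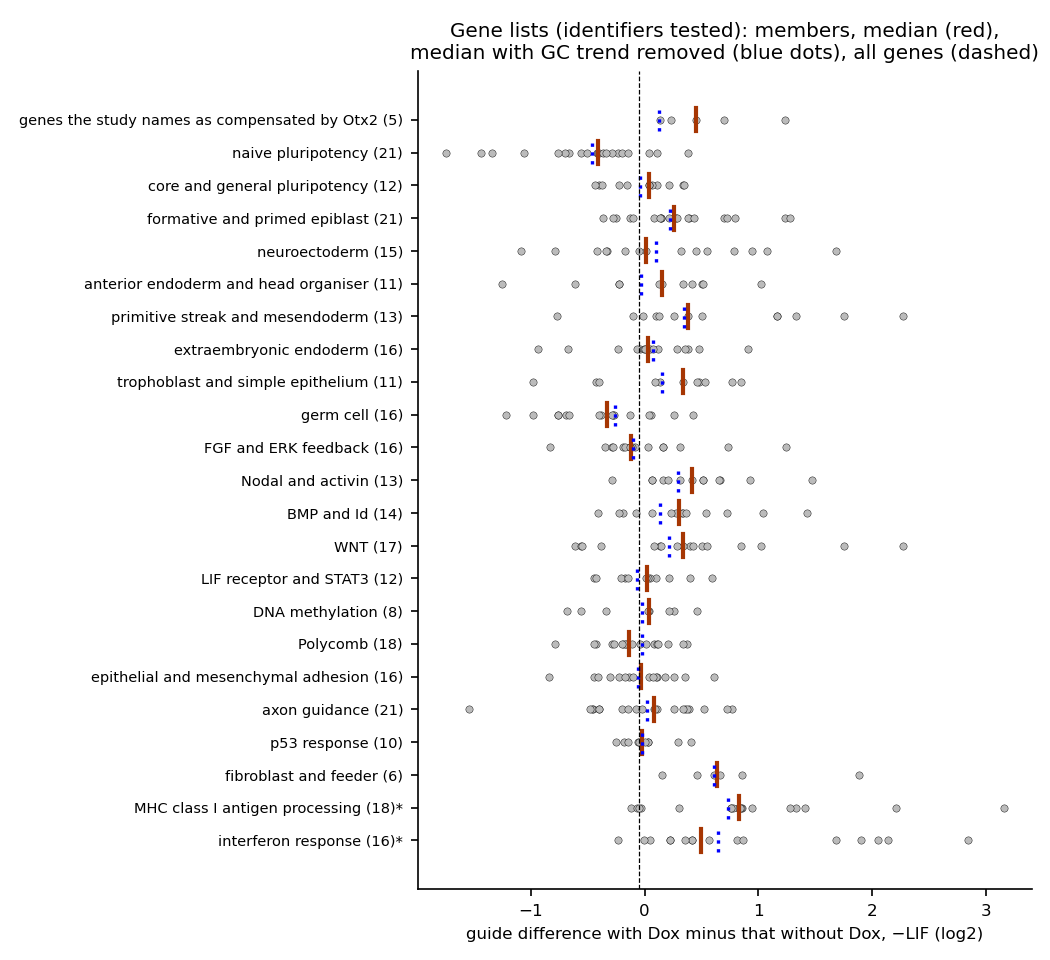
Dox-dependent difference (log2) of each tested member of the gene lists, as dots, with the list's median (red) and its median with the GC trend removed (blue dots), and the median of all genes (dashed, −0.05); an asterisk marks the 2 lists chosen after values had been seen. Naive pluripotency lies mostly below and Nodal and activin mostly above the dashed line, and the MHC class I list reaches 3.16 for Psmb8.

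Genes that respond to Nanog were taken from libraries outside the comparison, those of 44iN cells, which are Nanog-null ES cells with a Dox-inducible Nanog transgene. Of the genes tested here, 1263 were higher and 601 lower with Nanog in 44iN cells. This class depends on a replicate block, chosen knowing that the fit without it called no gene. Among the 1263, 406 (32.1%) were higher and 130 (10.3%) lower in Nanog/Otx2 than in Nanog cells with Dox, and 237 and 67 without. Among the 601, 34 (5.66%) were higher and 189 (31.4%) lower with Dox, and 29 and 93 without. Of all genes tested, 20.1% were higher and 20.8% lower with Dox, and 13.4% and 11.9% without. The classes thus differed from all genes without Dox too. The median guide difference with Dox was 0.28 for the 1263 and −0.37 for the 601 genes. With the GC trend removed it was −0.08 and −0.02. The median Dox-dependent differences were 0.10 and −0.20, against −0.05 for all genes, and −0.01 and −0.02 with the GC trend removed. With Dox the genes that Nanog raises in 44iN cells had median responses of 0.13 in Nanog and 0.26 in Nanog/Otx2 cells, and those that it lowers had 0.08 and −0.13.

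Guide differences without Dox were largest for genes with near-identical copies, which are uncertain because reads can be split between copies. The 3 largest increases were those of Gm10159, Rpl36a-ps3 and Gm15536, with 1428 to 1795, 481 to 656 and 76.6 to 278 normalised counts in Nanog/Otx2 and 0 in Nanog cells without Dox. The 3 largest decreases were those of Rps27, Gm16056 and Rpl30-ps9, with 8895 to 11458, 76.2 to 142 and 3186 to 5057 in Nanog cells, and 0, 0 and 5.00 to 60.8 in Nanog/Otx2 cells. They differed in the same way with Dox.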

How the data were processed

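RNA-seq tables of 26 SunTag libraries were analysed. The first holds estimated counts, which the authors made with STAR and RSEM on mm9 and rounded. The second holds a deposited signal, these counts after division by the size factor that DESeq2 gave a library, called normalised counts here. A gene was tested if, in 1 or more of the 8 groups of guide, LIF and Dox, no library had fewer than 10 normalised counts. The quasi-likelihood test of edgeR (4.0.16, R 4.3.3) was run with TMM factors on a model of 8 group means. Fold changes are log2, with the standard errors of the fit, and p-values were adjusted over all 16210 genes after Benjamini and Hochberg. Log2 Dox-dependent differences are contrasts of 4 groups. Intervals cover these libraries only, and a gene with at most 3 counts in a group was given no fold.

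Genes were named by rule: the guide targets, the genes the study discusses, the 8 largest called Dox-dependent differences and the 3 largest called differences without Dox in each direction (a mean of at least 100 normalised counts and no overlap), and in each list called members and up to 4 of smallest p. Members and lists were chosen with earlier results of these data known. A list member that stays in the counts of its list is not reported here by name. GC content was computed from mm9 exons (GENCODE vM1). The GC trend was removed with an offset from a lowess fit (span 0.3) in each library. Genes of 44iN cells were called in a fit with the replicate number as a block. The block was chosen knowing that the edgeR fit of these libraries without it called no gene. DESeq2 (1.42.0), its size factors, other filters, the 14 libraries without LIF alone, GC correction, replicate blocks, the libraries C1-1 and C1-1b summed as 1 (chosen after seeing the data) and 14 fits with 1 library left out were alternatives.

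Nanog/Otx2 libraries of the same clone and number deviated together with and without Dox (r of 0.26 to 0.51, mean 0.41). These numbers were treated as pairs only in the alternative fit with a block of clone and number. Nanog libraries of the same clone had a mean r of 0.19 and were blocked there by clone alone. The main fit had no block. The pairing comes from the titles, as the table's columns number some libraries differently.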

Additional observations from a re-analysis of the deposited data

Results flagged for a closer look

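The number of genes whose difference between the guides depended on Dox without LIF, 5, is a difference between conditions in itself, tested as the contrast of 4 groups in edgeR. Among the 30 groups of 4 libraries screened, 2 values lay far from the other 3 by Dixon's criterion, which chance meets in about 1 of 20 groups. One is the minor Pou3f1 identifier in the Nanog/Otx2 library C2ON3-2 without Dox, with 74.6 normalised counts. The other is Rpl30-ps9 in the Nanog/Otx2 library C1ON3-1 without Dox, with 60.8 normalised counts.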

How the results depend on the processing

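The precision of the Dox-dependent difference, the 3 Nanog libraries per condition, and the coincidence of guide and library set limit what these data can show. With 1 library left out, the number of genes called was 5363 to 6644 with Dox, 2291 to 4041 without Dox and 0 to 7 for the Dox-dependent difference. Removing the GC trend gave 4001 genes with Dox, and the guide differences without Dox of Sox3 (−0.53) and Sox11 (−0.056) changed sign. DESeq2 called 41 genes for the Dox-dependent difference without LIF and 54 with LIF. With a replicate block the counts were 8 and 16 (parental lineage) and, without LIF, 10 (clone and number for Nanog/Otx2, clone alone for Nanog libraries). The medians for genes higher and lower with Nanog in 44iN cells (0.10 and −0.20) were 0.051 to 0.18 and −0.25 to −0.15 with 1 library left out, and −0.054 and −0.15 with genes called between long-term Nanog-null and Tg2a cells, so that the first changed sign. The causes were not tested. Of the single-gene values and the counts of called list members recomputed, 3480 kept their side of the threshold or their count, 48 lost and 11 gained a call, 11 counts of list members moved by over 1.5 times, and 2 called values, those of Sox3 and Sox11, changed sign. Among list medians, 9 of 22 changed sign with 1 library left out and 4 with the GC trend removed.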

Other observations

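Genes of MHC class I antigen processing, beyond Psmb8, stood out among the largest Dox-dependent differences, and a list was drawn up after these values had been seen, so no test is given. The products of these genes cut, transport and load peptides for presentation at the cell surface. Over all 16210 genes 55.5% of the values were below 0, and 481 genes were higher at an unadjusted p under 0.05 (edgeR). Of the 18 identifiers tested, 14 had a Dox-dependent difference above 0 and 10 of them an unadjusted p under 0.05. Their median was 0.83, against −0.05 over all genes, and 0.73 with the GC trend removed. In edgeR 1, Psmb8, was called, DESeq2 called 3, and with a replicate block 2 were called. Tap2, a peptide transporter subunit whose gene lies next to Psmb8 on chromosome 17, had 18.0, 24.0 and 11.8 normalised counts in Nanog and 145 to 293 in Nanog/Otx2 cells with Dox, and 47.8 to 60.2 and 89.0 to 165 without. Its Dox-dependent difference was 2.21 ± 0.44 (adjusted p = 0.0958, edgeR). Tapbp, the peptide-loading factor tapasin, had 146 to 306 and 608 to 1281 with Dox and a Dox-dependent difference of 1.41 (adjusted p = 0.379). Dox lowered 9 of the 18 identifiers in Nanog cells and 1 in Nanog/Otx2 cells, against 5.09% and 3.9% of all genes tested. B2m, the invariant light chain, did not follow, with 336 to 524 normalised counts in Nanog and 279 to 449 in Nanog/Otx2 cells with Dox.

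Interferon-responsive genes, a list also drawn up after values had been seen, had a median of 0.49 (14 of 16 above 0), with 0 called in edgeR, 7 at an unadjusted p under 0.05, and 2 called by DESeq2. The values of all genes to set beside these are those given for the MHC class I list. Parp10, a mono-ADP-ribosyltransferase, had 41.0, 51.4 and 49.7 normalised counts in Nanog and 252 to 493 in Nanog/Otx2 cells with Dox, with a Dox-dependent difference of 2.14 ± 0.41 (adjusted p = 0.0725, edgeR). Ifit1, Ifit3, Irf7, Isg15, Rsad2 and Usp18 did not reach the minimum count.

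DESeq2 called 41 genes for the Dox-dependent difference without LIF. The difference of 35 of them had the same sign with LIF (85.4%, against 61.5% of all genes), where the libraries are separate and the clones shared. Some of the 41 were at or near 0 in Nanog cells, where the sign is uncertain. Gm7336 and Gm15590 had 0 normalised counts in the Nanog libraries with Dox and without LIF, and Ak3l2-ps had 0 to 3.76. Psmb8 had 0 in all Nanog libraries with LIF.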
